A study of Homo sapiens with 17 samples.

Results

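LNCaP-abl cells (abl below) treated with an siRNA against FOXA1 (siFoxA1 in the labels, siFOXA1 below) were set against abl cells treated with a control siRNA (siControl). The comparison takes the 4 RNA-seq count columns whose names give these treatments in abl, 2 per treatment, out of 12 such columns. They belong to 2 of the 17 samples of the series, and 15550 of the 23230 genes in the count table had enough counts to be tested. The study knocked down FOXA1 or CREB1 in 2 human prostate cancer lines and also mapped where these factors bind. LNCaP is an established line from a prostate cancer metastasis that depends on androgen, and abl is its subline that the labels call androgen independent. In both groups abl cells, at passages 62 to 64, had been grown in 10% charcoal-stripped serum, which is depleted of steroids, and split every 2 days. Cells of both groups took up their siRNA at 40 nM and were collected 3 days later; serum during that time was 5% and also charcoal-stripped, so siFOXA1 and siControl cells share the low-androgen medium. The labels give no siRNA sequence, list 1 sample per treatment and do not say whether its 2 columns came from separate cultures, so the p-values measure the spread between libraries, which may be technical.

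FOXA1 is a forkhead transcription factor that can bind its sites in closed chromatin and make them accessible to other factors. In prostate luminal cells it works with steroid receptors and with partners such as HOXB13 and GATA2, and it is needed for the luminal gene programme. It binds mostly at enhancers away from gene starts, and it can raise or lower the transcription of the genes it acts on.

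Counts assigned to genes were 22943180 and 24176310 in the siFOXA1 libraries, against 37314039 and 9092597 in the siControl libraries. Levels are given as CPM, the usual depth-scaled count unit, with library sizes scaled by TMM, and are compared between libraries and not between genes, since they are not corrected for gene length. Changes are log2 changes of siFOXA1 over siControl ± SE with 2 libraries a side, and a gene was called at an adjusted p below 0.05. The luminal markers HOXB13, KRT18 and EPCAM were expressed in all 4 libraries, with HOXB13 at 477 and 501 CPM in the siFOXA1 libraries, against 469 and 391 CPM in the siControl libraries. The androgen-induced kallikreins KLK3 and KLK2 were near 0, with KLK3 at 0.689 and 0.994 CPM in the siFOXA1 libraries, against 0.361 and 0.111 CPM in the siControl libraries. The 13 neutrophil and myeloid markers summed to 8.59 and 6.66 CPM in the siFOXA1 libraries, against 12.3 and 5.61 CPM in the siControl libraries, and 1 of them had no count. Of these, 3 were called lower in siFOXA1 cells, and none of them without the first siControl library. The lymphoid and erythroid marker sums were at most 0.66 CPM in each library.

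FOXA1 itself had 196 and 229 CPM in the siFOXA1 libraries, against 556 and 504 CPM in the siControl libraries. Both siFOXA1 libraries lay below both siControl libraries. FOXA1 mRNA fell to 40.0% of its level in siControl cells (log2 change -1.32 ± 0.08, adjusted p = 2.04e-08, edgeR's quasi-likelihood test, Benjamini-Hochberg). CREB1, the cyclic AMP-responsive factor that the study also knocked down, was at 60.4 and 56.1 CPM in the siFOXA1 libraries, against 78.8 and 79.7 CPM in the siControl libraries. It fell to 73.6% of its siControl level (log2 change -0.44 ± 0.09, adjusted p = 0.00114).

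A large share of all genes was called. Of the 15550 genes tested, 8779 (56.5%) passed the threshold, 4651 (29.9%) higher and 4128 (26.5%) lower in siFOXA1 cells. A change of at least 1 on the log2 scale was called higher for 1028 genes (6.61%) and lower for 1104 (7.10%). The median log2 change over all tested genes was 0.027, and in 77.0% of genes the siFOXA1 and siControl libraries did not overlap. These shares are the background for each group of genes below. In RNA from a whole culture, fewer cells of a kind and less RNA per cell cannot be told apart.

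The 12 largest rises (mean log2 CPM 3 or more) included several genes that were nearly silent in siControl cells. ABP1, which encodes diamine oxidase, the enzyme that degrades histamine and putrescine, stood at 494 and 540 CPM in the siFOXA1 libraries, against 7.45 and 5.68 CPM in the siControl libraries. Its log2 change of 6.21 ± 0.14 was the largest of the 12 (adjusted p = 1.90e-12). IL1B, the inflammatory cytokine interleukin-1 beta, had 22.5 and 31.5 CPM in the siFOXA1 libraries, against 0.361 and 0.446 CPM in the siControl libraries (log2 change 6.14 ± 0.27, adjusted p = 6.40e-10). In these 2 genes the siControl level was a small fraction of that in either siFOXA1 library.

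DAPK1, a death-associated protein kinase, was at 79.7 and 100 CPM in the siFOXA1 libraries, against 4.03 and 4.12 CPM in the siControl libraries (log2 change 4.47 ± 0.13, adjusted p = 1.82e-11). PLA2G2A, a secreted phospholipase A2, was already expressed in control cells and rose to 876 and 848 CPM in the siFOXA1 libraries, against 60.4 and 54.3 CPM in the siControl libraries (log2 change 3.90 ± 0.08, adjusted p = 1.59e-12). CRYAB, a small heat shock protein, had 96.3 and 85.7 CPM in the siFOXA1 libraries, against 6.42 and 8.02 CPM in the siControl libraries. Its siFOXA1 libraries also lay well above the siControl ones (log2 change 3.73 ± 0.14, adjusted p = 1.11e-10). The voltage-gated potassium channel gene KCNC4 rose by 5.46 ± 0.34 on the log2 scale. Without the first siControl library its rise was 7.23. That value rests on 1 control read, so it does not measure the size of the rise. The secreted nuclease gene DNASE1L3 rose by 4.29 ± 0.25 on the log2 scale, and DEGS2, a desaturase of sphingolipid synthesis, by 3.70 ± 0.16. ATP12A, a subunit of a proton pump, rose by 3.99 ± 0.25 on that scale, and by 3.23 without the first siControl library. GSTA2, a glutathione transferase, rose by 4.71 ± 0.34, but its reads cannot be told apart with certainty from those of near-identical family members. The remaining members of the 12, OASL and RSAD2, are antiviral genes described with the interferon pathway.

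The 12 largest falls were led by S100P, a calcium-binding protein often found in epithelial tumours. It had 0.781 and 0.302 CPM in the siFOXA1 libraries, against 48.3 and 57.8 CPM in the siControl libraries. The log2 change was -6.61 ± 0.23 (adjusted p = 6.55e-11); leaving out the first siFOXA1 library gave -7.42. DUSP27, of the dual-specificity phosphatase family, stood at 0.460 and 0.562 CPM in the siFOXA1 libraries, against 35.2 and 44.0 CPM in the siControl libraries (log2 change -6.24 ± 0.22, adjusted p = 7.91e-11). THBS1, the matrix protein thrombospondin-1, had 1.33 and 0.605 CPM in the siFOXA1 libraries, against 24.9 and 25.9 CPM in the siControl libraries (log2 change -4.71 ± 0.26, adjusted p = 5.70e-09), with a log2 change of -5.37 without the first siFOXA1 library. All 4 siFOXA1 values of S100P and DUSP27 were below 1 CPM. No siFOXA1 library of these 3 genes came near a siControl library, but the rule that picked them required that the groups not overlap.

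The other 9 falls were in LRRC31, a leucine-rich repeat protein gene (-4.87 ± 0.20), GPR1, a receptor for chemerin (-4.79 ± 0.23), DMGDH, a mitochondrial enzyme of choline breakdown (-4.06 ± 0.22), IQGAP3, a cytoskeletal scaffold (-3.97 ± 0.13), and ADM2, SLC1A4, FAM129A, CHAC1 and ALDH1L2, each as a log2 change. The last 5 belong to the list of the integrated stress response, described next.

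**Figure D1:**
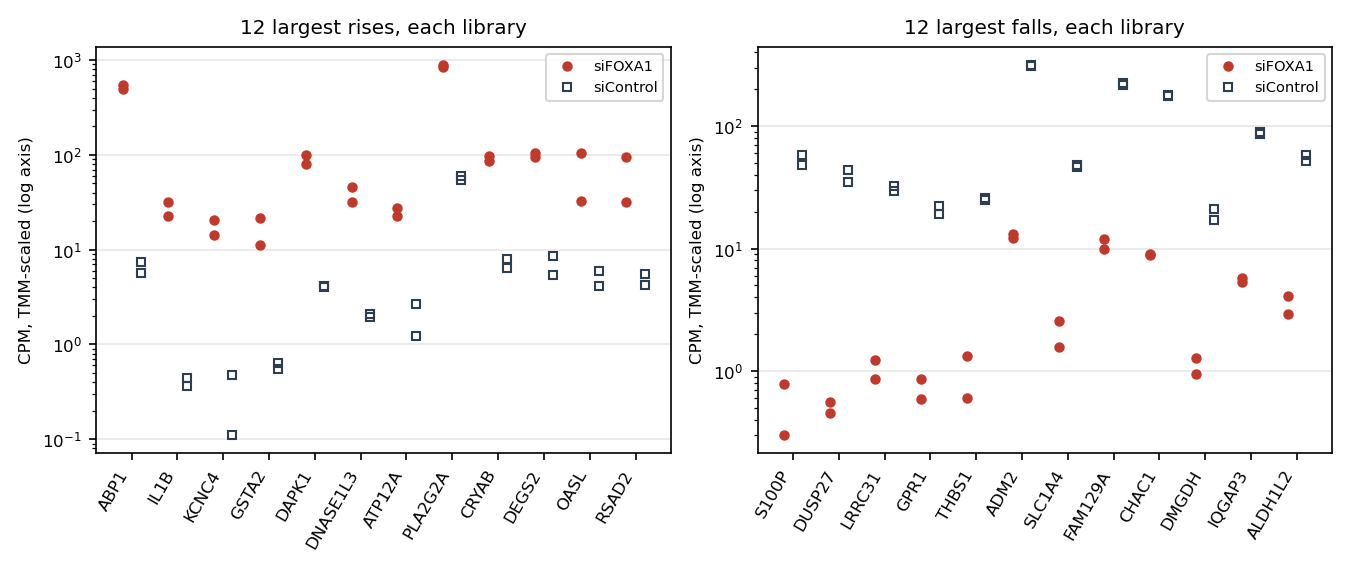
CPM (log axis) of the 12 largest rises and the 12 largest falls in each library, with siFOXA1 libraries as filled circles and siControl libraries as open squares. The rule that chose the 24 genes required that groups not overlap; OASL and RSAD2 had the widest gap between their siFOXA1 libraries among the rises.

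The integrated stress response is the programme that cells switch on when amino acids run short or proteins misfold. Kinases phosphorylate the initiation factor eIF2, general translation slows, and the transcription factor ATF4 is made and raises genes for amino acid synthesis, uptake and tRNA charging. All 80 listed genes were tested, and 63 fell and 10 rose, beside 26.5% lower and 29.9% higher among all genes. Of the 80 genes, 49 fell by at least 1 on the log2 scale, beside 7.10% of all genes, and the median log2 change was -1.40.

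Among the 15 sensors and factors, 11 fell and 1 rose. ATF4 had 373 and 382 CPM in the siFOXA1 libraries, against 1337 and 1305 CPM in the siControl libraries. Its siFOXA1 libraries lay within 10 CPM of each other and far below siControl (log2 change -1.81 ± 0.06, adjusted p = 3.84e-11). DDIT3, the stress factor CHOP, was at 52.8 and 43.8 CPM in the siFOXA1 libraries, against 275 and 344 CPM in the siControl libraries (log2 change -2.68 ± 0.12, adjusted p = 4.86e-10), and TRIB3, a pseudokinase that ATF4 induces, was at 96.6 and 97.6 CPM in the siFOXA1 libraries, against 470 and 461 CPM in the siControl libraries (log2 change -2.26 ± 0.08, adjusted p = 4.74e-11). The kinases EIF2AK3 (PERK) and EIF2AK4 (GCN2) did not pass the threshold, with log2 changes of -0.18 ± 0.09 and -0.05 ± 0.07.

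Of the 17 genes of amino acid and one-carbon synthesis, 15 fell and 2 rose. PCK2, mitochondrial phosphoenolpyruvate carboxykinase, had 92.8 and 101 CPM in the siFOXA1 libraries, against 820 and 925 CPM in the siControl libraries (log2 change -3.17 ± 0.08, adjusted p = 3.28e-12). MTHFD2, a mitochondrial folate enzyme, had 41.0 and 46.5 CPM in the siFOXA1 libraries, against 399 and 455 CPM in the siControl libraries (log2 change -3.28 ± 0.11, adjusted p = 5.52e-11), and ALDH1L2, another mitochondrial folate enzyme, had 4.09 and 2.94 CPM in the siFOXA1 libraries, against 51.6 and 58.0 CPM in the siControl libraries (log2 change -3.96 ± 0.15, adjusted p = 2.16e-10). The 2 genes that rose were the cytosolic folate enzymes SHMT1 and MTHFD1. SHMT1 stood at 112 and 104 CPM in the siFOXA1 libraries, against 41.9 and 42.5 CPM in the siControl libraries (log2 change 1.36 ± 0.08, adjusted p = 6.26e-09), and MTHFD1 changed by 0.47 ± 0.07 on the log2 scale. So the mitochondrial folate enzymes named here fell, and these 2 cytosolic ones did not.

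Among 12 amino acid transporters, 10 fell and 1 rose. SLC1A4, which carries small neutral amino acids, had 1.56 and 2.55 CPM in the siFOXA1 libraries, against 47.9 and 46.7 CPM in the siControl libraries (log2 change -4.52 ± 0.15, adjusted p = 4.10e-11). SLC6A9, a glycine transporter, fell by 3.57 and SLC1A5, the main glutamine carrier, by 3.08 on the log2 scale. The gene that rose was SLC36A1, a lysosomal amino acid carrier, at 102 and 78.8 CPM in the siFOXA1 libraries, against 41.4 and 37.0 CPM in the siControl libraries (log2 change 1.19 ± 0.11, adjusted p = 4.97e-07).

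All 16 stress effectors fell, with log2 changes between -4.61 and -0.72. ADM2, a peptide hormone of the adrenomedullin family, had 13.2 and 12.2 CPM in the siFOXA1 libraries, against 307 and 312 CPM in the siControl libraries (log2 change -4.61 ± 0.08, adjusted p = 3.79e-13). FAM129A, a stress-induced protein also called NIBAN1, had 12.1 and 9.98 CPM in the siFOXA1 libraries, against 218 and 226 CPM in the siControl libraries (log2 change -4.33 ± 0.11, adjusted p = 5.89e-12). CHAC1, which degrades glutathione, had 8.96 and 8.90 CPM in the siFOXA1 libraries, against 180 and 177 CPM in the siControl libraries (log2 change -4.32 ± 0.12, adjusted p = 1.30e-11). FGF21, a secreted hormone induced by amino acid shortage, was low throughout, at 0.0919 and 0.130 CPM in the siFOXA1 libraries, against 2.86 and 2.23 CPM in the siControl libraries (log2 change -4.51 ± 0.44, adjusted p = 3.51e-06). The siFOXA1 and siControl libraries of ADM2, FAM129A and CHAC1 were apart by many times the gap within either pair. Those of FGF21 were also apart, but by less relative to the gap between its siControl libraries.

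The promoters of FGF21 and CHAC1 are shown because these members combine a large fall with the core letters of the CEBP-ATF response element, TGATGNAA (N is any base, either strand), to which ATF4 binds. In the 250 bases before the gene start, RefSeq promoters (GRCh38.p14) of 10 of the 64 matched stress response genes (15.6%) held these letters, beside 3.19% of 27305 promoters in the table and 1.53% of those of the genes tested. The FGF21 window is chr19:48755274-48755523 (+ strand), the CHAC1 window is chr15:40953221-40953470 (+ strand), and the match, in capitals, reads on the opposite strand in both.
FGF21: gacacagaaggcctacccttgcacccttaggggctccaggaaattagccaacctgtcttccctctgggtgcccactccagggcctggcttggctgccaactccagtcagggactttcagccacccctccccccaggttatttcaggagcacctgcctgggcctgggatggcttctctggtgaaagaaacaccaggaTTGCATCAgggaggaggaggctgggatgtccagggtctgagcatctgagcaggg
CHAC1: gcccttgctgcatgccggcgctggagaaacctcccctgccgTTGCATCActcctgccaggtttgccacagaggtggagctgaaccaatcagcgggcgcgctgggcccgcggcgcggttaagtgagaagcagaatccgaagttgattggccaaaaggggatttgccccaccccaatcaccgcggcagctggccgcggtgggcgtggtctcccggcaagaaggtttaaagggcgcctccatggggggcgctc
The match lies 54 bases before the start of FGF21 and 209 bases before that of CHAC1. It is a match of letters, and ATF4 binding was not measured here.

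The 20 cytosolic tRNA synthetases, which load amino acids onto tRNAs, divided in direction: 11 fell, 6 rose and 3 did not pass the threshold. GARS, for glycine, had 159 and 178 CPM in the siFOXA1 libraries, against 772 and 803 CPM in the siControl libraries (log2 change -2.22 ± 0.07, adjusted p = 2.06e-11). WARS, for tryptophan, and SARS, for serine, fell by 2.02 and 1.90 on the log2 scale. The rises were small, the largest in FARSA, the alpha subunit of the phenylalanine enzyme, at 186 and 186 CPM in the siFOXA1 libraries, against 128 and 112 CPM in the siControl libraries (log2 change 0.62 ± 0.07, adjusted p = 4.99e-06). QARS, for glutamine, was at 250 and 264 CPM in the siFOXA1 libraries, against 175 and 171 CPM in the siControl libraries (log2 change 0.57 ± 0.06, adjusted p = 1.96e-06), and HARS, for histidine, rose by 0.28 ± 0.06. The median log2 change of the 20 was -0.57.

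**Figure D2:**
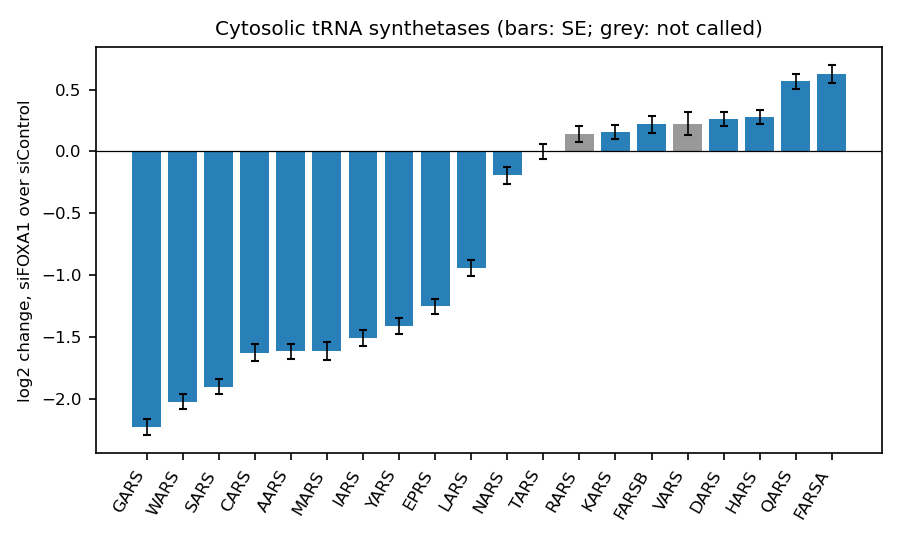
Log2 change (siFOXA1 over siControl, error bars SE) of the 20 cytosolic tRNA synthetases, ordered by change, with bars that did not pass the threshold in grey. They run from -2.22 for GARS to 0.62 for FARSA, and 9 fell by at least 1.

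Genes of mitosis made up the second large group of falls. Cyclin B with CDK1 drives entry into mitosis, the spindle is built by kinesins, and kinetochores tie chromosomes to it, and these genes are transcribed mostly late in the cell cycle under FOXM1, MYBL2 and the E2F factors. All 99 cell division genes were tested, 89 fell and 5 rose, the median log2 change was -1.89, and 78 fell by at least 1 on the log2 scale.

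All 18 mitotic kinases and checkpoint genes fell. NEK2, a centrosome kinase, had 4.37 and 4.10 CPM in the siFOXA1 libraries, against 34.7 and 33.9 CPM in the siControl libraries (log2 change -3.02 ± 0.16, adjusted p = 2.86e-09). PLK1, polo-like kinase 1, had 8.55 and 9.81 CPM in the siFOXA1 libraries, against 70.6 and 68.0 CPM in the siControl libraries (log2 change -2.92 ± 0.16, adjusted p = 4.94e-09), and BIRC5, the survivin subunit of the Aurora B complex, had 8.78 and 11.5 CPM in the siFOXA1 libraries, against 69.4 and 62.0 CPM in the siControl libraries (log2 change -2.70 ± 0.15, adjusted p = 6.00e-09). Both libraries of each group lay close together in these 3 genes, and the groups were far apart.

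All 25 kinesins and spindle proteins and all 11 condensation genes fell as well. KIF2C, a kinesin that shortens microtubules, was at 4.87 and 6.05 CPM in the siFOXA1 libraries, against 64.4 and 59.2 CPM in the siControl libraries (log2 change -3.50 ± 0.18, adjusted p = 2.47e-09). TOP2A, the topoisomerase that untangles chromosomes, was at 10.9 and 11.8 CPM in the siFOXA1 libraries, against 98.6 and 105 CPM in the siControl libraries (log2 change -3.15 ± 0.16, adjusted p = 2.48e-09), and MKI67, the Ki-67 protein that coats mitotic chromosomes, changed by -2.82 ± 0.21 on the log2 scale. Of 19 kinetochore and centromere genes, 17 fell, led by CENPF, a kinetochore protein, at 10.6 and 9.76 CPM in the siFOXA1 libraries, against 127 and 117 CPM in the siControl libraries (log2 change -3.59 ± 0.16, adjusted p = 6.51e-10). The siFOXA1 levels of these genes were in every case below those of both siControl libraries, but they were picked as called lower, which favours this.

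The 26 cell cycle regulators were more mixed, with 18 lower and 5 higher. CDC25C, the phosphatase that activates CDK1, had 1.29 and 1.47 CPM in the siFOXA1 libraries, against 13.4 and 17.7 CPM in the siControl libraries (log2 change -3.44 ± 0.24, adjusted p = 4.67e-08). CCNB2, cyclin B2, had 4.32 and 5.05 CPM in the siFOXA1 libraries, against 46.4 and 43.9 CPM in the siControl libraries (log2 change -3.27 ± 0.19, adjusted p = 9.09e-09), and MYBL1, a MYB family factor, changed by -2.46 ± 0.31. The 3 largest of the 5 rises were in genes of the entry into DNA synthesis. CDC25A, which activates CDK2, stood at 26.6 and 29.4 CPM in the siFOXA1 libraries, against 13.8 and 11.5 CPM in the siControl libraries (log2 change 1.10 ± 0.12, adjusted p = 3.14e-06), E2F3, an E2F factor, at 78.0 and 80.2 CPM in the siFOXA1 libraries, against 43.5 and 46.6 CPM in the siControl libraries (log2 change 0.82 ± 0.07, adjusted p = 1.90e-07), and CCNE1, cyclin E1, at 7.49 and 7.86 CPM in the siFOXA1 libraries, against 4.42 and 4.46 CPM in the siControl libraries (log2 change 0.79 ± 0.13, adjusted p = 1.02e-04). 

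The CCNB2 promoter (chr15:59104896-59105145 (+ strand), RefSeq, GRCh38.p14) is shown as an example of the letters TTTGAA, the cell cycle homology region through which many mitotic genes are held back outside late cycle. These letters stood, on either strand, in the 250 bases before the start of 33 of 83 matched cell division genes (39.8%), beside 13.6% of all promoters and 8.71% of those of the genes tested.
CCNB2: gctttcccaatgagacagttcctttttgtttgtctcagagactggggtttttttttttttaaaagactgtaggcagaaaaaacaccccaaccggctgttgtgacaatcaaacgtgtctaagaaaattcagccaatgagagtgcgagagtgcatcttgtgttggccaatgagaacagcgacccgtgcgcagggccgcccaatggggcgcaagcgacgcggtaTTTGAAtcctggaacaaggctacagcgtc
The match, in capitals, begins 29 bases before the gene start.

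DNA replication genes moved less. Of 55 genes, 30 fell and 4 rose (1 without the second siFOXA1 library), with a median log2 change of -0.32 and 9 falls of at least 1. Of the 19 genes that license origins or form the helicase, 12 fell, and 6 did so without the first siFOXA1 library. CDC6, which loads the helicase, had 7.77 and 9.68 CPM in the siFOXA1 libraries, against 24.9 and 22.1 CPM in the siControl libraries (log2 change -1.44 ± 0.15, adjusted p = 2.20e-06). POLE, the leading-strand polymerase, had 36.7 and 35.9 CPM in the siFOXA1 libraries, against 140 and 169 CPM in the siControl libraries (log2 change -2.08 ± 0.09, adjusted p = 3.83e-10), and TK1, the thymidine salvage kinase, had 14.8 and 18.3 CPM in the siFOXA1 libraries, against 40.8 and 33.3 CPM in the siControl libraries (log2 change -1.19 ± 0.13, adjusted p = 3.08e-06). RRM2B, a ribonucleotide reductase subunit, rose instead, with 210 and 187 CPM in the siFOXA1 libraries, against 127 and 131 CPM in the siControl libraries (log2 change 0.63 ± 0.08, adjusted p = 1.35e-05).

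Among the 32 CDK inhibitors and growth arrest genes, 15 rose and 5 fell (8 without the first siFOXA1 library). CDKN1A, the CDK inhibitor p21, had 646 and 347 CPM in the siFOXA1 libraries, against 225 and 203 CPM in the siControl libraries (log2 change 1.21 ± 0.25, adjusted p = 0.00101), and its first siFOXA1 library was well above the second. BTG2, an antiproliferative gene, was at 73.4 and 54.4 CPM in the siFOXA1 libraries, against 23.6 and 21.1 CPM in the siControl libraries (log2 change 1.49 ± 0.17, adjusted p = 3.60e-06), FAS, a death receptor, at 27.4 and 22.5 CPM in the siFOXA1 libraries, against 9.11 and 8.25 CPM in the siControl libraries (log2 change 1.50 ± 0.15, adjusted p = 1.15e-06), and PLK2 rose by 1.82 ± 0.15 on the log2 scale. Of 28 genes of cell death, 11 rose and 4 fell, beside background shares of 29.9% higher and 26.5% lower. BCL2L11, the pro-death protein BIM, had 221 and 205 CPM in the siFOXA1 libraries, against 62.5 and 58.2 CPM in the siControl libraries (log2 change 1.81 ± 0.09, adjusted p = 1.72e-09), and BCL2, which opposes it, had 5.01 and 3.72 CPM in the siFOXA1 libraries, against 9.53 and 9.47 CPM in the siControl libraries (log2 change -1.13 ± 0.16, adjusted p = 2.97e-05).

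**Figure D3:**
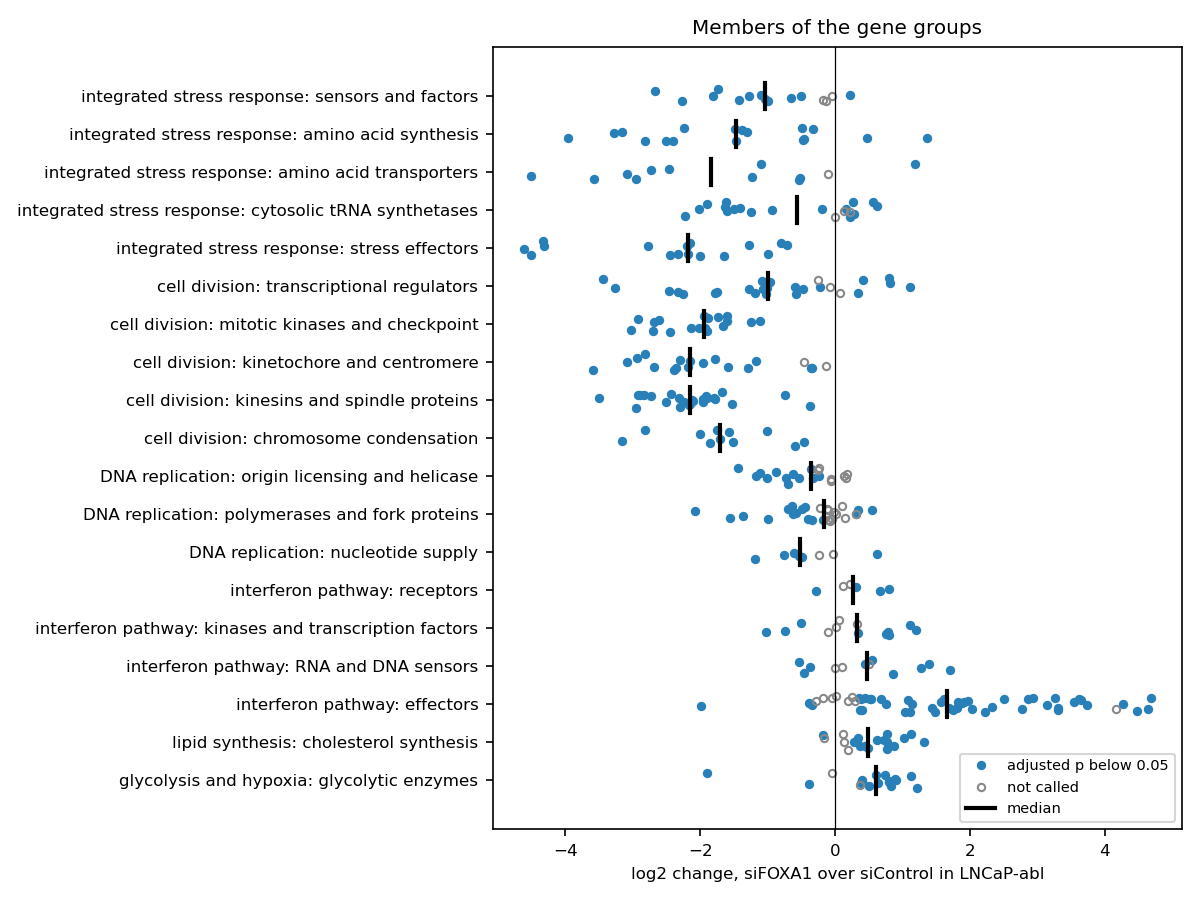
Log2 change (siFOXA1 over siControl in abl) of the tested members of 19 gene groups; filled points passed the threshold, open points did not, and vertical bars mark group medians. The mitotic groups and the stress effectors lie almost wholly left of 0, and most interferon effectors, cholesterol synthesis genes and glycolytic enzymes lie right of it.

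The interferon pathway held more rises than any other list. Interferons bind receptors on the cell surface, JAK kinases activate STAT factors, which with IRF9 enter the nucleus, and these switch on antiviral effector genes; RNA and DNA sensors can set off the same programme from inside the cell. Of the 94 tested pathway genes, 63 rose and 10 fell (6 without the second siControl library). Ligands were at or near 0: IFNB1 had no count in any of the 4 libraries, and IL29, interferon lambda 1, had 0.322 and 0.130 CPM in the siFOXA1 libraries, against 0.0278 and 0 CPM in the siControl libraries. The rise of IL29 rests on these few reads and was lost without the first siFOXA1 library (adjusted p = 0.164) and without the first siControl library (adjusted p = 0.135).

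Receptors, kinases and factors moved less than the effectors described next. Of 6 receptor genes, 3 rose and 1 fell, with log2 changes from -0.28 to 0.80. IFNGR2, a subunit of the interferon gamma receptor, stood at 96.4 and 87.5 CPM in the siFOXA1 libraries, against 54.6 and 50.6 CPM in the siControl libraries (log2 change 0.80 ± 0.07, adjusted p = 3.44e-07), and IFNAR1, of the type I receptor, at 80.1 and 81.7 CPM in the siFOXA1 libraries, against 100 and 95.4 CPM in the siControl libraries (log2 change -0.28 ± 0.06, adjusted p = 0.00103). Of 13 kinases and factors, 6 rose and 3 fell. IRF9 had 20.8 and 16.7 CPM in the siFOXA1 libraries, against 8.75 and 6.69 CPM in the siControl libraries (log2 change 1.20 ± 0.13, adjusted p = 2.64e-06), IRF1 had 12.1 and 9.38 CPM in the siFOXA1 libraries, against 21.7 and 22.1 CPM in the siControl libraries (log2 change -1.03 ± 0.13, adjusted p = 1.04e-05), and JAK2 changed by -0.75 ± 0.10. Of 12 sensors, 6 rose and 3 fell. DDX58, the RNA sensor RIG-I, had 37.2 and 26.1 CPM in the siFOXA1 libraries, against 13.3 and 12.5 CPM in the siControl libraries (log2 change 1.28 ± 0.14, adjusted p = 3.03e-06), and TMEM173, the DNA-sensing adaptor STING, had 12.4 and 15.1 CPM in the siFOXA1 libraries, against 4.64 and 6.58 CPM in the siControl libraries (log2 change 1.39 ± 0.25, adjusted p = 2.52e-04). ADAR, which edits double-stranded RNA, fell, with 578 and 567 CPM in the siFOXA1 libraries, against 827 and 827 CPM in the siControl libraries (log2 change -0.53 ± 0.06, adjusted p = 4.87e-06).

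Most of the rises were among the effectors. Of 54 tested, 43 rose and 3 fell (1 with either siControl library left out), 34 rose by at least 1 on the log2 scale, beside 6.61% of all genes, and the median log2 change was 1.66, or 1.60 with the effector that had no count in siControl set to its bound. BST2, tetherin, which holds budding virus at the cell surface, had 15.2 and 8.55 CPM in the siFOXA1 libraries, against 0.472 and 0.446 CPM in the siControl libraries (log2 change 4.65 ± 0.38, adjusted p = 1.77e-07). IFI27 had 13.3 and 7.95 CPM in the siFOXA1 libraries, against 0.445 and 0.557 CPM in the siControl libraries (log2 change 4.48 ± 0.36, adjusted p = 1.87e-07), and IFI44L had 1.20 and 1.34 CPM in the siFOXA1 libraries, against 0.0556 and 0 CPM in the siControl libraries (log2 change 4.68 ± 0.67, adjusted p = 4.14e-05), with a log2 change of 7.85 without the first siControl library, which holds its only control reads. OASL, an OAS-like protein, had 104 and 33.0 CPM in the siFOXA1 libraries, against 5.92 and 4.12 CPM in the siControl libraries (log2 change 3.64 ± 0.48, adjusted p = 2.02e-05), and RSAD2, viperin, had 95.3 and 32.0 CPM in the siFOXA1 libraries, against 5.50 and 4.23 CPM in the siControl libraries (log2 change 3.62 ± 0.43, adjusted p = 7.73e-06). Every siFOXA1 library was above both siControl libraries in all 43 effectors that rose. They were picked as called higher, which favours this, and 77.0% of all tested genes had no overlap in either direction. Of the 3 effectors that fell, LAMP3 fell furthest and was the only 1 to do so by at least 1 on the log2 scale. MX1, a classical antiviral effector, also fell, at 4.46 and 5.01 CPM in the siFOXA1 libraries, against 6.14 and 6.35 CPM in the siControl libraries. The call of MX1 was lost without the first siFOXA1 library and without either siControl library.

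The siFOXA1 libraries differed from each other in these genes. The first was higher than the second in 41 of the 43 effectors, with a median ratio of 1.45 and a range of 0.892 to 3.15, and the ratio was above 2 in 8 of them. Over all 1028 genes that rose by at least 1, the median ratio was 1.06 and 4.09% were above 2. The siControl libraries had a median ratio of 1.06 in the same effectors. Without the first siFOXA1 library 40 effectors were called higher, and OASL and RSAD2 had log2 changes of 2.60 and 2.63. Without the second siFOXA1 library these were 4.25 and 4.20 with 44 effectors called higher, and without the first siControl library 38 effectors were called higher. What set the siFOXA1 libraries apart in these genes was not tested.

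**Figure D4:**
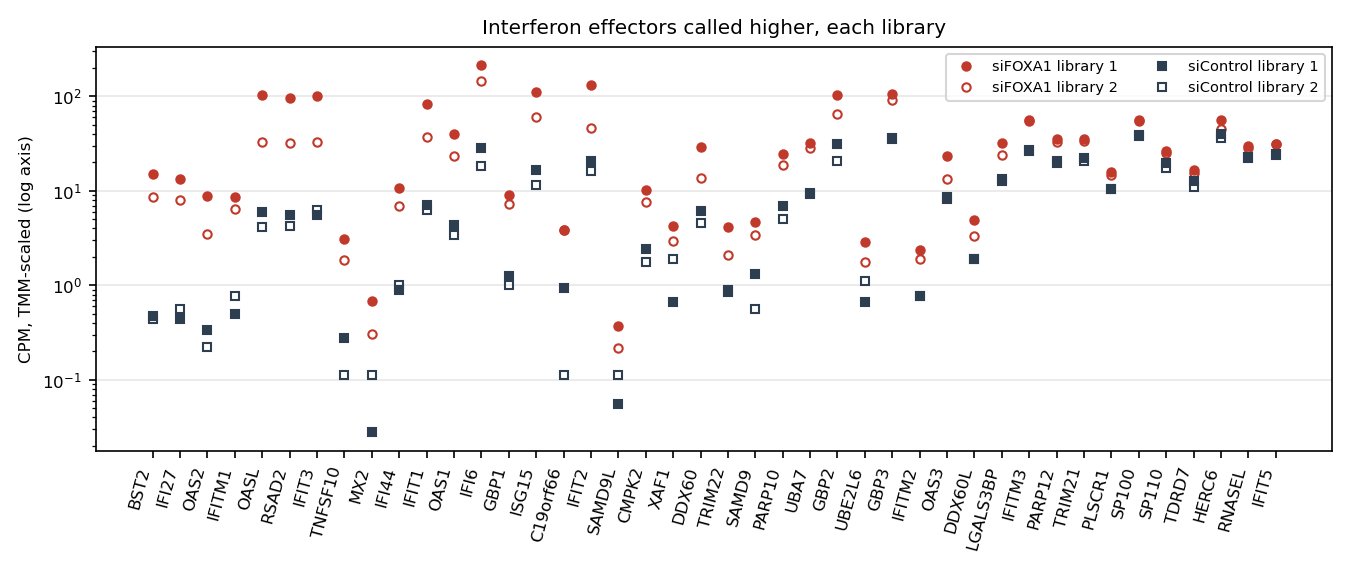
CPM (log axis) of 42 interferon effectors that rose and had counts in all 4 libraries, ordered by change, with filled markers for library 1 and open markers for library 2 of siFOXA1 (circles) and siControl (squares). Both siFOXA1 libraries lie above both siControl libraries in each gene, which picking genes called higher favours. The gap between the siFOXA1 libraries is widest for OASL, RSAD2 and IFIT3.

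The promoters of IFI44L and BST2, the effectors with the largest rises among those that hold them, are shown with the core letters of the interferon-stimulated response element (GAAA, any 2 bases, then GAAA again), where STAT and IRF factors bind. They stood, on either strand, in the 250 bases before the start of 25 of 44 matched effectors (56.8%), beside 3.07% of all promoters and 2.44% of those of the genes tested. The windows are chr1:78620198-78620447 (+ strand) for IFI44L and chr19:17405631-17405880 (- strand) for BST2 (RefSeq, GRCh38.p14), and capitals mark the matches.
IFI44L: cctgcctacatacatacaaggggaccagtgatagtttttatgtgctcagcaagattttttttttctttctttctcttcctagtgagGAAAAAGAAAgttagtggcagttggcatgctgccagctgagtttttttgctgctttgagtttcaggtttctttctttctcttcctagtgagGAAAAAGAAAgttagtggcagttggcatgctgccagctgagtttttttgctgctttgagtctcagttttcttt
BST2: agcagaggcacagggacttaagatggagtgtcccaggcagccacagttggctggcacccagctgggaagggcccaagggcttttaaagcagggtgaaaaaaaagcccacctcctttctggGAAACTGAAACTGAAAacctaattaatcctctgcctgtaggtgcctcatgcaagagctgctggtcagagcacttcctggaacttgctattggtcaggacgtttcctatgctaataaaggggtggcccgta
IFI44L holds 2 separate matches, 164 and 73 bases before the start, and BST2 holds 2 overlapping ones, 130 and 124 bases before it. Forkhead letters (TGTTTAC or TGTTTGC) stood in the windows of 4.55% of the effectors, 1.56% of the stress response genes and 2.41% of the cell division genes, beside 6.05% of all promoters and 4.04% of those of the genes tested; enhancers were not searched.

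Genes that present antigen on MHC class I, which interferon also raises, moved less. Of 19 tested, 8 rose and 2 fell (1 without the first siControl library or either siFOXA1 library), with a median log2 change of 0.53. NLRC5, the factor that switches on class I genes, had 35.5 and 23.8 CPM in the siFOXA1 libraries, against 7.72 and 9.70 CPM in the siControl libraries (log2 change 1.83 ± 0.18, adjusted p = 1.05e-06), and PSME2, a proteasome activator subunit, had 188 and 179 CPM in the siFOXA1 libraries, against 52.0 and 55.4 CPM in the siControl libraries (log2 change 1.78 ± 0.06, adjusted p = 1.11e-10). The heavy and light chain genes, whose reads can map to several of them, gave 2 calls higher of 7, 1 without the first siFOXA1 library and 5 without the second.

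Of 11 tested chemokines and cytokines, 9 rose and none fell. The background shares for the counts of this paragraph are 29.9% higher and 26.5% lower among all genes. After IL1B the largest rises were in CXCL11 and CXCL10, interferon-induced ligands of the chemokine receptor CXCR3 of T cells. CXCL11 had 3.13 and 1.43 CPM in the siFOXA1 libraries, against 0.0833 and 0 CPM in the siControl libraries (log2 change 4.98 ± 0.66, adjusted p = 2.02e-05). Its log2 change was 8.68 without the first siControl library, but that library holds its only control reads, so 8.68 does not measure the size of the rise. CXCL10 had 2.25 and 0.951 CPM in the siFOXA1 libraries, against 0.0556 and 0.111 CPM in the siControl libraries (log2 change 4.46 ± 0.71, adjusted p = 1.08e-04), and 3.77 without that library. Of the 12 NF-kappaB factors and inhibitors, 3 rose and 3 fell, with NFKB2 at 61.6 and 59.6 CPM in the siFOXA1 libraries, against 33.6 and 30.5 CPM in the siControl libraries (log2 change 0.90 ± 0.09, adjusted p = 8.17e-07) and CYLD, which restrains the pathway, at 28.2 and 28.0 CPM in the siFOXA1 libraries, against 53.6 and 53.7 CPM in the siControl libraries (log2 change -0.93 ± 0.07, adjusted p = 4.47e-08).

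The list of forkhead factors and of other transcription factors named for the prostate lineage leaned lower, but its members did not all move the same way. Of 35 tested, 21 fell and 5 rose, beside 26.5% lower and 29.9% higher among all genes. Their median log2 change was -0.36. By at least 1 on the log2 scale, 8 fell and 2 rose, beside 7.10% and 6.61% of all genes. FOXA1, the siRNA target, is counted among these falls and among those of the forkhead factors. Of 9 forkhead factors 7 fell, but only 3 without the second siFOXA1 library and 4 without the first siControl library; FOXP1, a forkhead repressor, fell (log2 change -1.97 ± 0.10, adjusted p = 3.31e-09). SPDEF, an ETS factor of luminal cells, had 16.6 and 15.8 CPM in the siFOXA1 libraries, against 87.3 and 63.9 CPM in the siControl libraries (log2 change -2.25 ± 0.13, adjusted p = 9.91e-09). KLF5, a zinc finger factor of epithelia, changed by -2.05 ± 0.25 on the log2 scale. In the other direction, GATA2, a zinc finger factor of luminal cells, stood at 500 and 544 CPM in the siFOXA1 libraries, against 259 and 236 CPM in the siControl libraries (log2 change 1.07 ± 0.07, adjusted p = 1.37e-08), and CEBPA, a differentiation factor, at 109 and 106 CPM in the siFOXA1 libraries, against 43.5 and 38.9 CPM in the siControl libraries (log2 change 1.37 ± 0.10, adjusted p = 5.17e-08). CEBPB, of the same family, fell, at 22.9 and 20.7 CPM in the siFOXA1 libraries, against 83.7 and 74.2 CPM in the siControl libraries (log2 change -1.86 ± 0.12, adjusted p = 2.91e-08). HOXB13 did not pass the threshold, with a log2 change of 0.18 ± 0.08.

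Of 38 androgen-regulated genes tested, 14 rose and 12 fell, with a median log2 change of -0.032. SLC45A3, prostein, fell, with 10.4 and 8.34 CPM in the siFOXA1 libraries, against 57.7 and 34.9 CPM in the siControl libraries (log2 change -2.37 ± 0.19, adjusted p = 1.83e-07), as did SLC43A1, an amino acid transporter, by 2.95 on the log2 scale. TMPRSS2, a surface protease, rose, with 168 and 166 CPM in the siFOXA1 libraries, against 88.3 and 68.9 CPM in the siControl libraries (log2 change 1.07 ± 0.09, adjusted p = 2.34e-07). FOLH1, prostate-specific membrane antigen, rose to 1249 and 1383 CPM in the siFOXA1 libraries, against 853 and 879 CPM in the siControl libraries (log2 change 0.60 ± 0.06, adjusted p = 2.58e-06), and KLK4, a kallikrein, had 36.2 and 40.7 CPM in the siFOXA1 libraries, against 21.4 and 15.0 CPM in the siControl libraries (log2 change 1.00 ± 0.15, adjusted p = 5.50e-05). Androgen-regulated genes thus lay on both sides of 0, and the counts of 14 and 12 stand beside background shares of 29.9% higher and 26.5% lower.

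The glucocorticoid receptor gene NR3C1 had 195 and 200 CPM in the siFOXA1 libraries, against 88.4 and 105 CPM in the siControl libraries (log2 change 1.04 ± 0.09, adjusted p = 4.13e-07). Of 15 cofactors and glucocorticoid targets, 10 fell and 4 rose. The targets moved apart: TSC22D3 (GILZ) had 25.9 and 26.0 CPM in the siFOXA1 libraries, against 189 and 184 CPM in the siControl libraries (log2 change -2.85 ± 0.07, adjusted p = 3.32e-12), and SGK1, a kinase, had 16.4 and 12.4 CPM in the siFOXA1 libraries, against 2.17 and 2.23 CPM in the siControl libraries (log2 change 2.72 ± 0.27, adjusted p = 1.22e-06). TLE3, a corepressor that works with FOXA1, had 131 and 146 CPM in the siFOXA1 libraries, against 309 and 276 CPM in the siControl libraries (log2 change -1.08 ± 0.10, adjusted p = 4.73e-07).

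Of 24 tested steroid-metabolising enzymes, 10 rose and 9 fell, beside background shares of 29.9% higher and 26.5% lower. AKR1C3, which makes testosterone from weaker androgens, had 3.63 and 2.59 CPM in the siFOXA1 libraries, against 0.361 and 0.111 CPM in the siControl libraries (log2 change 3.31 ± 0.42, adjusted p = 1.45e-05), and 4.73 without the first siControl library; its reads are uncertain because the AKR1C genes are near-identical. HSD11B2, which inactivates cortisol, had 73.4 and 65.3 CPM in the siFOXA1 libraries, against 27.6 and 26.0 CPM in the siControl libraries (log2 change 1.36 ± 0.10, adjusted p = 9.19e-08). UGT2B10, of the family that conjugates androgens for excretion, had 2.02 and 0.951 CPM in the siFOXA1 libraries, against 18.8 and 16.2 CPM in the siControl libraries (log2 change -3.59 ± 0.33, adjusted p = 7.09e-07); leaving out the first siFOXA1 library gave -4.22, with the same doubt about copies. Of 10 tested conjugating enzymes 6 fell and 2 rose.

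Metabolic enzymes rose in several pathways. Of 19 cholesterol synthesis genes, 14 rose and 1 fell (none with either siControl library or the second siFOXA1 library left out), with a median log2 change of 0.50. TM7SF2, a sterol reductase, had 519 and 558 CPM in the siFOXA1 libraries, against 227 and 205 CPM in the siControl libraries (log2 change 1.32 ± 0.08, adjusted p = 1.53e-08), and FDPS, farnesyl diphosphate synthase, had 204 and 191 CPM in the siFOXA1 libraries, against 97.9 and 96.6 CPM in the siControl libraries (log2 change 1.02 ± 0.06, adjusted p = 9.61e-09). Of 19 fatty acid synthesis genes, 9 rose and 9 fell, beside background shares of 29.9% higher and 26.5% lower. FASN, fatty acid synthase, had 2646 and 2969 CPM in the siFOXA1 libraries, against 1329 and 991 CPM in the siControl libraries (log2 change 1.27 ± 0.22, adjusted p = 1.82e-04), and ACACA, the carboxylase before it, had 183 and 178 CPM in the siFOXA1 libraries, against 281 and 258 CPM in the siControl libraries (log2 change -0.58 ± 0.11, adjusted p = 4.89e-04). Of 19 glycolytic enzymes and glucose or lactate carriers, 15 rose and 2 fell (1 without the first siControl library or either siFOXA1 library), with a median log2 change of 0.61. TPI1, triosephosphate isomerase, had 1015 and 1026 CPM in the siFOXA1 libraries, against 471 and 465 CPM in the siControl libraries (log2 change 1.12 ± 0.06, adjusted p = 3.37e-09), GAPDH rose by 0.90 ± 0.07 and ALDOC, an aldolase, by 1.22 ± 0.08. ENO1, enolase 1, fell, with 695 and 660 CPM in the siFOXA1 libraries, against 894 and 879 CPM in the siControl libraries (log2 change -0.39 ± 0.07, adjusted p = 2.49e-04).

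Of 17 tested genes of the polyamine pathway, 4 rose, ABP1 among them, and 6 fell, beside background shares of 29.9% higher and 26.5% lower. ARG2, mitochondrial arginase, had 164 and 149 CPM in the siFOXA1 libraries, against 567 and 504 CPM in the siControl libraries (log2 change -1.78 ± 0.08, adjusted p = 1.12e-09), and ODC1, which makes putrescine, changed by -0.38 ± 0.07 on the log2 scale.

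Epithelial and matrix genes were mixed. Of 18 junction and epithelial splicing genes, 7 fell and 4 rose. CDH1, E-cadherin, had 792 and 752 CPM in the siFOXA1 libraries, against 1483 and 1570 CPM in the siControl libraries (log2 change -0.98 ± 0.06, adjusted p = 1.41e-08). ESRP1, an epithelial splicing regulator, had 40.1 and 41.6 CPM in the siFOXA1 libraries, against 181 and 208 CPM in the siControl libraries (log2 change -2.24 ± 0.08, adjusted p = 9.81e-11), and CLDN4, a tight junction claudin, rose by 1.18 ± 0.09. KRT8, a luminal keratin, had 581 and 558 CPM in the siFOXA1 libraries, against 348 and 304 CPM in the siControl libraries (log2 change 0.80 ± 0.09, adjusted p = 3.87e-06), and KRT19, another, rose by 3.19 ± 0.35 on the log2 scale, or 4.14 without the first siControl library. The luminal keratin KRT20 was instead called lower (log2 change -2.68), and its change was -2.08 without that library. Luminal keratins gave 3 calls higher and 1 lower among the 5 with enough counts. Basal keratins and basal factors gave 4 calls higher and 2 lower among 9. Of 17 tested mesenchymal and matricellular genes 10 rose and 3 fell, and 5 rose without the first siControl library. Fibroblast markers summed to 20.8 and 26.2 CPM in the siFOXA1 libraries, against 15.6 and 16.8 CPM in the siControl libraries, and their part in these rises was not tested. Among 26 TGF-beta and BMP genes, 6 rose and 7 fell. ID1, a BMP target that blocks differentiation factors, had 163 and 129 CPM in the siFOXA1 libraries, against 19.9 and 16.0 CPM in the siControl libraries (log2 change 2.97 ± 0.44, adjusted p = 5.63e-05), and ID3 rose by 2.28 ± 0.39.

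Of 26 neuroendocrine and neuronal genes only 15 had enough counts to be tested, and 7 rose and 2 fell (1 with either siFOXA1 library left out). SYT4, a synaptotagmin, had 12.4 and 11.1 CPM in the siFOXA1 libraries, against 1.31 and 1.11 CPM in the siControl libraries (log2 change 3.21 ± 0.20, adjusted p = 1.53e-08), DLL3, a Notch ligand, had 8.59 and 7.52 CPM in the siFOXA1 libraries, against 3.31 and 2.67 CPM in the siControl libraries (log2 change 1.36 ± 0.19, adjusted p = 3.00e-05), and CALCA, the calcitonin gene, had 0.138 and 0.0432 CPM in the siFOXA1 libraries, against 3.19 and 1.45 CPM in the siControl libraries (log2 change -4.80 ± 0.59, adjusted p = 2.46e-05). Its log2 change was -5.76 without the first siFOXA1 library, -4.20 without the second, and -3.94 without the first siControl library. CHGA, INSM1 and NEUROD1, defining genes of neuroendocrine cells, were too low to be tested.

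The siFOXA1 libraries were also set against the abl libraries treated with an siRNA against CREB1 (siCREB1), which show the effect of another siRNA in the same line. Both share the siControl libraries, so the comparison was made directly between the knockdowns, where 41.0% of genes differed. The 24 genes were picked for their size in the siFOXA1 libraries, which favours a difference in the same direction. All 12 rises were called higher than in siCREB1 cells and 10 of the 12 falls lower, although DMGDH loses its call without the second siFOXA1 library (adjusted p = 0.196). ABP1 stood at 12.9 and 14.6 CPM in the siCREB1 libraries, far below both siFOXA1 libraries (log2 difference 5.23 ± 0.12, adjusted p = 1.36e-11). LRRC31 stood at 25.1 and 20.1 CPM in siCREB1 libraries, nearer to siControl than to siFOXA1, and the log2 difference was -4.42 ± 0.20, adjusted p = 3.71e-09. In contrast, S100P was at 0.721 and 0.851 CPM in siCREB1 libraries and GPR1 at 0.856 and 1.50 CPM, about as low as under siFOXA1. Their log2 differences did not pass the threshold (S100P -0.56 ± 0.42, adjusted p = 0.319; GPR1 -0.69 ± 0.33, adjusted p = 0.112). The stress gene ADM2 was at 27.6 and 23.5 CPM in siCREB1 libraries, far nearer to siFOXA1 than to siControl (log2 difference -1.01 ± 0.09, adjusted p = 7.13e-07). Against the same siControl libraries, the log2 changes of ADM2, CHAC1, FAM129A and SLC1A4 were -4.61, -4.32, -4.33 and -4.52 under siFOXA1, beside -3.60, -3.56, -3.43 and -3.04 under siCREB1. Over the 12 falls the siCREB1 change was -6.05 to -2.82 in all but LRRC31 (-0.45), and over the 12 rises it was 0.03 to 1.74.

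Treatment with siFOXA1 in LNCaP gives the other point of comparison. The labels do not say whether both lines received the same siRNA sequence. LNCaP cells of passages 32 to 34 were kept in 10% serum and moved to the same medium for treatment. The difference of the siFOXA1 effects, abl minus LNCaP, passed the threshold for 32.6% of genes and for 21 of the 24 genes above, of which OASL, RSAD2, DUSP27 and LRRC31 lost it in at least 1 alternative. The 24 were picked in abl, which favours larger changes there. In LNCaP, where 49.8% of genes were called, 9 of the 12 rises were called higher and 8 of the 12 falls lower. THBS1 moved in opposite directions. It had 672 and 488 CPM in LNCaP siFOXA1 libraries, against 28.8 and 24.9 CPM in LNCaP siControl libraries, a log2 change of 4.42 ± 0.15, against -4.71 ± 0.26 in abl (difference -9.13 ± 0.29, adjusted p = 3.28e-10). DAPK1 rose further in LNCaP, with 364 and 345 CPM in LNCaP siFOXA1 libraries, against 0.903 and 1.02 CPM in LNCaP siControl libraries (log2 change 8.54 ± 0.16; difference -4.07 ± 0.25, adjusted p = 8.96e-08). In ADM2, CHAC1 and SLC1A4 the log2 changes in LNCaP were -0.98 ± 0.08, -0.24 ± 0.16 and -0.50 ± 0.13, and LNCaP siControl cells had far less of each transcript than abl siControl cells. CHAC1, for example, had 4.93 and 5.77 CPM in LNCaP siFOXA1 libraries, against 7.11 and 5.25 CPM in LNCaP siControl libraries. IL1B, DNASE1L3 and CRYAB rose in both lines, and their differences did not pass the threshold (adjusted p of 0.239, 0.734 and 0.447). For CRYAB the difference was -0.23 ± 0.21 on the log2 scale.

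**Figure D5:**
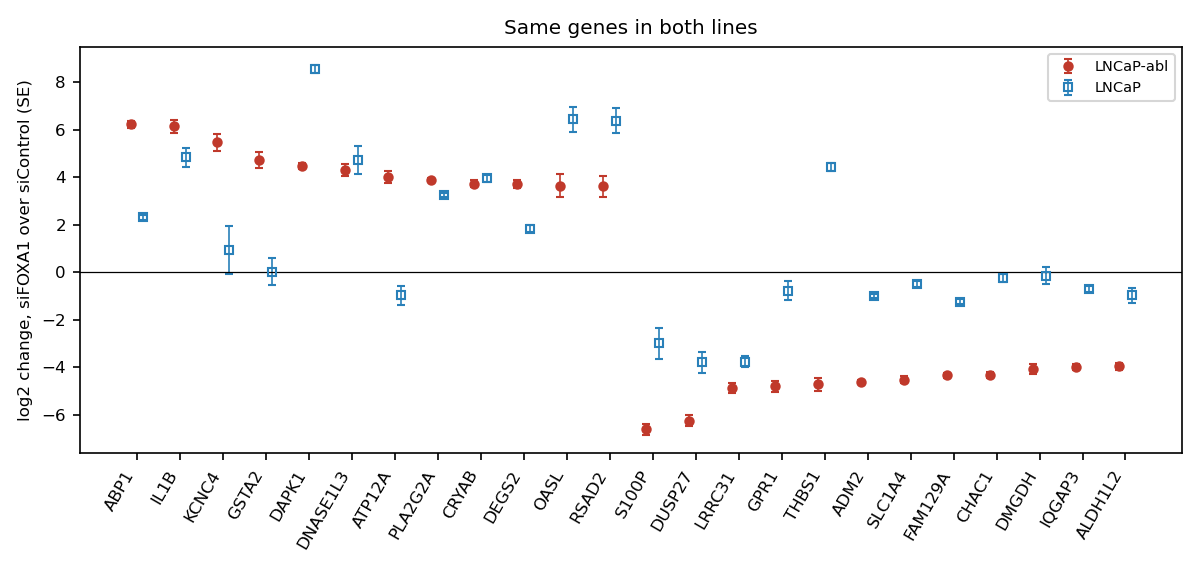
Log2 change (siFOXA1 over siControl, error bars SE) of the 24 genes in abl (filled circles) and LNCaP (open squares). THBS1 lies at -4.71 in abl and 4.42 in LNCaP, and the 5 stress response genes lie between -4.61 and -3.96 in abl, against -1.23 to -0.24 in LNCaP.

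The authors' deposited table for siFOXA1 in abl lists 8708 genes, of which 8594 were tested here. All 8594 had the same sign of change in the authors' deposited table and here, and 96.92% of them were called here, while 450 genes called here are not in that table.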

How the data were processed

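RNA-seq of abl cells after siFOXA1 or siControl was analysed from the deposited raw counts per gene. Per the submitters' processing notes, HTSeq 0.5.3p9, Bowtie2 2.1.0, TopHat2 2.0.8 and CASAVA 1.8 were used, with hg19 as the build; annotation and strand setting are not given in the sources used here, but the library kit named in the labels' protocols does not mark strand, so reads of overlapping and antisense genes cannot be told apart. The authors' deposited table gives log2 fold changes and p-values per gene and was used only as a check; edgeR 3.0.6 is among the tools in the notes. Columns named SIC were read as siControl; the 8 repeated control columns held identical values and each library was used once. Rows without a gene name entered neither library sizes nor tests, and reads with no feature were 56.0% to 58.3% of the counted total in the 4 libraries.

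A single edgeR 4.0.16 fit (R 4.3.3) took all 12 libraries in 6 groups (TMM scaling, filterByExpr, quasi-likelihood F-test, 6 residual degrees of freedom, common biological coefficient of variation 0.0625), with Benjamini-Hochberg adjustment over 15550 genes. The SE is the absolute log2 change over the square root of F. Libraries within a group differed by more than sampling noise (chi-square per degree of freedom 6.56 for siFOXA1 and 4.35 for siControl). Each was counted as its own replicate, though this spread does not show that they came from separate cultures. The script was checked on simulated counts. Named genes are FOXA1 and CREB1, the 12 largest rises and falls among called genes with mean log2 CPM of at least 3 and no overlap between groups, and up to 3 called members per direction and role of 20 gene lists; EIF2AK3, EIF2AK4, HOXB13, KRT18, EPCAM, KLK3, CHGA, INSM1 and NEUROD1 were added after their values were seen. Members, lists and motifs were chosen with earlier results of these data known. Peak lists were not used, since gene starts of their build were not at hand. Some genes that the rule names are not reported here.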

Additional observations from a re-analysis of the deposited data

Results flagged for a closer look

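For 21 of the 24 genes with the largest changes in abl, the siFOXA1 effect differed between the lines in a test of the difference itself (edgeR, abl minus LNCaP, adjusted p below 0.05). Values are that difference on the log2 scale. Among the rises it was positive, with the larger rise in abl, for ABP1 (3.90), KCNC4 (4.53), GSTA2 (4.68), ATP12A (4.96), PLA2G2A (0.65) and DEGS2 (1.87). It was negative, with the larger rise in LNCaP, for DAPK1 (-4.07), OASL (-2.78) and RSAD2 (-2.76). Among the falls it was negative for S100P (-3.62), DUSP27 (-2.46), LRRC31 (-1.12), GPR1 (-4.01), THBS1 (-9.13), ADM2 (-3.63), SLC1A4 (-4.02), FAM129A (-3.10), CHAC1 (-4.08), DMGDH (-3.93), IQGAP3 (-3.28) and ALDH1L2 (-2.99). THBS1 was the only one of the 21 whose calls in abl and in LNCaP had opposite signs. The differences of OASL and RSAD2 lost their call without the first abl siControl library (adjusted p = 0.232 and 0.175), that of DUSP27 without the first abl siFOXA1 library (adjusted p = 0.0665), and that of LRRC31 with a replicate block (adjusted p = 0.0581) and in 3 of the 4 fits that leave out an abl library. Several of these genes were nearly silent in 1 line, where the estimate of the change is least certain.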

How the results depend on the processing

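Each count and gene was recomputed under 12 alternatives: DESeq2 size factors, upper-quartile scaling, DESeq2's Wald test, no filter, a stricter filter, only the 4 libraries compared, only the 6 abl libraries, a replicate block, and each of the 4 libraries left out. The count of genes called, 8779, was 8817 with a replicate block and 7774 with DESeq2, of which 7736 were shared. No label ties library numbers across groups. The deviations of same-numbered libraries correlated at 0.084 for abl siFOXA1 with siControl, but at 0.369 for abl siFOXA1 with siCREB1, and from -0.141 to 0.476 over all 15 pairs of groups, so the numbers were not taken to pair the samples. With the block, the siFOXA1 against siCREB1 comparison called 6426 genes, beside 6368 without it. Of 249 named genes none reversed under any alternative that gave a value. Leaving out a library ended the call of 10 to 36 of them, most without the first siControl library, which holds 37314039 of the control counts against 9092597 in the second. Genes at a few counts depend most on 1 library, as given beside them. The distance of peaks to gene starts and its alternatives were not run, since gene starts on hg19 were not at hand. Levels near 1 CPM rest on about 9 counts in the second siControl library.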
